A study of Arabidopsis thaliana with 18 samples.

Results

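The response of Arabidopsis thaliana seedlings to salt was followed in the libraries whose solvent control carried no second compound. The labels put 6 of the 18 libraries of the series in this comparison, 3 from seedlings kept with 1% (v/v) DMSO and 3 from seedlings given the same DMSO and then NaCl at 100 mM, and each gene of the deposited count table was measured in all 6. Both groups were whole seedlings of the genotype Col-0 in liquid MS medium. Per the protocol, compounds were given 4 days after germination, NaCl followed 16 h later, and seedlings were harvested 2 h after the NaCl. The protocol names DPAM-1 and coronatine at that first step, and no mock addition or time of harvest is given for the group without NaCl, so an effect of the addition itself or of time cannot be told apart from one of NaCl. The other 12 libraries held seedlings given 5 µM DPAM-1, known here by its code name only, or 5 µM coronatine, a bacterial toxin that mimics the active jasmonate, each without and with 100 mM NaCl. The 3 libraries of a group are numbered with no word on separate cultures, so p-values measure the spread between libraries, which may be technical.

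NaCl in the medium draws water out of root cells and brings sodium ions in, and plants answer through calcium signals and the hormone abscisic acid. Abscisic acid is bound by PYR/PYL receptors, which then block clade A PP2C phosphatases. This frees SnRK2 kinases to switch on ABF transcription factors, whose targets include dehydrins, small hydrophilic proteins that shield other proteins in drying cells. DREB factors act beside this route on many of the same targets.

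The regions before 5 genes are shown as examples from the groups described below. RD29A, XERO2 and LEA7 are protective genes that rose, AT1G76600 had the largest rise among the genes named for size, and NOP56, a nucleolar protein of ribosome assembly, fell. Each sequence holds the 250 bases before the annotated gene start, read 5′ to 3′ on the gene's strand from the RefSeq assembly TAIR10.1 with its annotation. Capitals mark the abscisic acid response element (ABRE, ACGTGTC or ACGTGGC) and the drought response element (DRE, ACCGAC or GCCGAC) in the first 3, the W-box (TTGACC or TTGACT) in AT1G76600, and the telo-box (AAACCCTA) and site II element (TGGGCC) in NOP56, each on either strand. They lie at chr5:21240467-21240716 on the + strand for RD29A, chr3:18940393-18940642 on the + strand for XERO2, chr1:19619474-19619723 on the + strand for LEA7, chr1:28746583-28746832 on the + strand for AT1G76600 and chr1:20986953-20987202 on the - strand for NOP56.
RD29A: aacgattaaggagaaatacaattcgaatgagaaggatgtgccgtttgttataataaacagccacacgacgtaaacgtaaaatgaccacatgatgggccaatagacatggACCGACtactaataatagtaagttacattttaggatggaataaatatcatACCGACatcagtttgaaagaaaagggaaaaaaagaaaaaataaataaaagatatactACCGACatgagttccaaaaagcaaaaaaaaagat
XERO2: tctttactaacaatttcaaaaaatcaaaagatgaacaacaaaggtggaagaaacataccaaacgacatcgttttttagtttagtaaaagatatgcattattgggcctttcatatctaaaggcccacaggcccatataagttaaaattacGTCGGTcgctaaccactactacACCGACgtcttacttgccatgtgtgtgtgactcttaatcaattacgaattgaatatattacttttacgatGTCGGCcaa
LEA7: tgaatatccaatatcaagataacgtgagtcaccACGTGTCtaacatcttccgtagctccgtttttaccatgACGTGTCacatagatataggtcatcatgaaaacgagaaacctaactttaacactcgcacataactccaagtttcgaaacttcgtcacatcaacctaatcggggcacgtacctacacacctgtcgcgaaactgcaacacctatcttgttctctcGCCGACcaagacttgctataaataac
AT1G76600: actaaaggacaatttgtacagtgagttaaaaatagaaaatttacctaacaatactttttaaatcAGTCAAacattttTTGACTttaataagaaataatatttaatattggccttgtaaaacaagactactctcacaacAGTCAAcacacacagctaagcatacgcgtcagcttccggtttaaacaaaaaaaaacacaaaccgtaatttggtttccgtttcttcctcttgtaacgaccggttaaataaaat
NOP56: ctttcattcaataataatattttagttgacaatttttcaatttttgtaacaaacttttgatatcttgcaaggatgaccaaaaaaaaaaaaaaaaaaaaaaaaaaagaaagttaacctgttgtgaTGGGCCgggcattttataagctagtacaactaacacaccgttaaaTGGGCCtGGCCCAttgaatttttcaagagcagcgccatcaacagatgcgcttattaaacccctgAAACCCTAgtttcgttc
The RD29A window held 3 DRE matches, which began 141, 91 and 34 bases before the annotated start. XERO2 also held 3 DRE matches, at 101, 79 and 9 bases, while LEA7 held 2 ABRE matches, at 217 and 179 bases, and 1 DRE match at 26 bases. In AT1G76600 the 3 W-box matches began 186, 173 and 112 bases before the start. The NOP56 window had site II matches at 126, 81 and 74 bases and a telo-box at 17 bases. Site II was marked in NOP56 only: the XERO2 window also held 3 site II matches, and the RD29A window holds the letters TGGGCC. A match is a description of the letters and not a site shown to be bound. Other genes of these groups can lack the motifs: the windows of AR781 and AT3G10930, also among the largest rises, held none of them.

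Of the 14229 genes tested, 2516 differed between the DMSO groups without and with NaCl, which is 17.7% of all genes (edgeR quasi-likelihood test, two-sided, Benjamini-Hochberg adjusted p under 0.05 over all genes). This adjusted p is the one given throughout, and a gene is said to have risen or fallen only where it passed. The call was higher with NaCl for 1395 genes (9.8% of all) and lower for 1121 (7.88%). Rises were the larger changes: 264 genes rose by at least 1 on the log2 scale (1.86% of all), against 46 that fell by as much (0.323%). A rise of at least 2 was seen in 52 genes (0.365%), and the largest fall among the genes named for size was that of FLA9, by 1.85. The median log2 fold change of all genes was -0.01 and the quartiles were -0.17 and 0.16. In bulk seedlings, fewer cells of a type and less RNA per cell cannot be told apart.

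**Figure D1:**
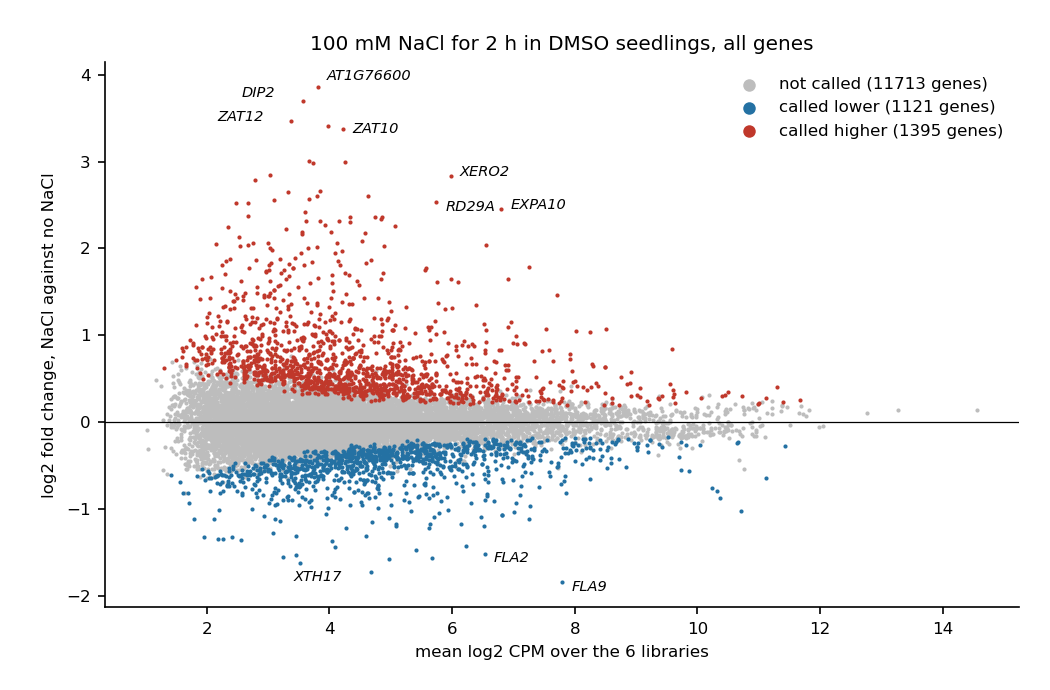
Log2 fold change of each of the 14229 genes, NaCl against no NaCl in DMSO seedlings, against its mean log2 CPM (reads scaled to library size) over the 6 libraries; 1395 genes called higher and 1121 called lower are coloured. The points above 2 on the vertical axis have no counterpart of the same size below -2.

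The 6 libraries held between 17266389 and 34202322 reads. Pearson correlations of log2 CPM were between 0.984 and 0.991 among the DMSO libraries, between 0.986 and 0.990 among the NaCl libraries, and between 0.962 and 0.978 across the groups. Genes of the organelles took 1.04 to 1.21% of reads without NaCl and 0.586 to 1.06% with NaCl, the lowest share being that of NaCl library 3. Of the 61 chloroplast genes 3 fell and 0 rose, beside 7.88% and 9.8% of all genes. Markers of seedling tissues were in the table: 26 of 26 nuclear photosynthesis genes, 10 of 10 root hair genes, 7 of 9 Casparian strip genes and 3 of 6 guard cell genes, with no member of the seed storage list. Their summed levels overlapped between the groups: 67744 to 85712 CPM without and 79028 to 87087 CPM with NaCl for photosynthesis, 182 to 212 and 154 to 195 CPM for root hairs, 76.6 to 107 and 93.0 to 101 CPM for the Casparian strip, and 56.1 to 68.6 and 60.0 to 70.1 CPM for guard cells. Among the 1395 genes that rose NaCl library 3 had the highest level in 721, against 282 in library 1 and 392 in library 2. Among the 1121 that fell the lowest level was in library 3 in 502, in library 2 in 501 and in library 1 in 118. Without NaCl library 3, 1677 genes were called, 990 higher and 687 lower, and 1623 of them were among the 2516.

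The largest changes were followed in 24 genes, 12 called higher and 12 called lower with the largest log2 fold changes, chosen where the groups do not overlap and the mean level reached 2 log2 CPM. The 12 rises included the transcription factors ZAT10 and ZAT12. ZAT10, a C2H2 zinc-finger factor of abiotic stress, was at 4.72, 7.84 and 4.87 CPM in the 3 DMSO libraries and at 52.6, 67.9 and 61.3 CPM with NaCl. The groups lay far apart, with a log2 fold change of 3.38 (SE 0.15, adjusted p = 1.54e-12). ZAT12, a second zinc-finger factor known from oxidative and cold stress, went from 3.19, 3.56 and 2.56 CPM to 33.5, 41.5 and 28.5 CPM, a log2 fold change of 3.47 (SE 0.21, adjusted p = 8.61e-11). AT1G76600 was at 4.36, 2.97 and 3.79 CPM without NaCl and 69.6, 54.1 and 37.3 CPM with it. Its log2 fold change of 3.86 (SE 0.22, adjusted p = 3.37e-11) was the highest of the 24, although its level with NaCl was lowest in library 3, the library most often highest among the rises. DIP2, annotated as an E3 ubiquitin-protein ligase, was at 3.65, 2.82 and 3.54 CPM and 32.1, 32.4 and 65.2 CPM, with library 3 highest, and rose by 3.70 (SE 0.28, adjusted p = 3.25e-09).

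The protective genes among the top rises showed the same unevenness between NaCl libraries. LEA7, a late embryogenesis abundant protein, was at 3.30, 3.07 and 3.43 CPM in DMSO and 17.7, 10.1 and 42.7 CPM with NaCl, and its log2 fold change was 2.85 (SE 0.37, adjusted p = 6.07e-06). XERO2, a dehydrin, was at 29.7, 24.4 and 17.9 CPM and then at 138, 154 and 224 CPM, with a log2 fold change of 2.84 (SE 0.20, adjusted p = 1.06e-09). The remaining 6 of the 12 rose by 2.66 to 3.41. They were AT2G41730 (3.41), BCS1 (3.01), a protein of mitochondria, AT1G07135 (3.0), annotated as glycine-rich, AR781 (2.99), AT3G10930 (2.79) and AT1G19020 (2.66), in each of which the 3 NaCl libraries lay above the 3 DMSO libraries.

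Falls were smaller, and several were of cell-wall genes. FLA9, a fasciclin-like arabinogalactan protein of the cell surface, was at 435, 478 and 363 CPM without NaCl and 148, 101 and 105 CPM with it. The groups did not overlap and the level fell by 1.85 on the log2 scale (SE 0.14, adjusted p = 2.1e-09), or 3.60-fold. FLA2, of the same family, went from 149, 172 and 153 CPM to 68.1, 46.0 and 50.6 CPM and fell by 1.52 (SE 0.11, adjusted p = 2.95e-09). XTH17, a xyloglucan endotransglucosylase that cuts and joins wall xyloglucan, went from 43.0, 54.7 and 44.9 CPM to 18.4, 9.44 and 14.6 CPM and fell by 1.73 (SE 0.17, adjusted p = 1.21e-07). DGR1, annotated with a DUF642 domain, fell by 1.44, and MIOX2, which oxidises myo-inositol toward wall sugars, by 1.47. ACO1, an enzyme of the last step of ethylene synthesis, fell by 1.37. AT4G12510 and AT4G12520, neighbouring lipid-transfer type genes whose reads may be shared between near-identical copies, fell by 1.57 and 1.43. The other 4 were AT1G14960 (fell by 1.62), AT4G21870 (fell by 1.58), annotated as HSP20-like, AT1G56680 (fell by 1.55), annotated as a chitinase, and AT5G66985 (fell by 1.53).

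**Figure D2:**
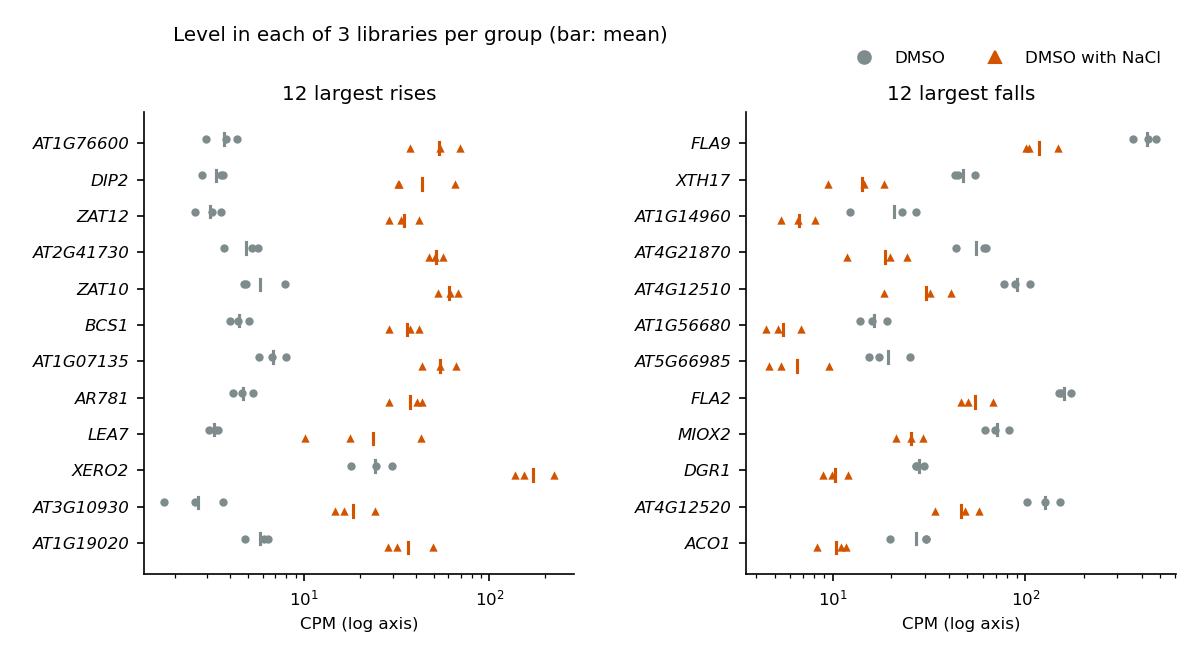
Level in CPM, on a log axis, of the 12 genes with the largest rises (left) and the 12 with the largest falls (right), with 1 symbol for each of the 3 DMSO and 3 NaCl libraries and a bar at each group mean. No gene has overlapping groups, and in LEA7 the NaCl libraries spread from 10.1 to 42.7 CPM.

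The abscisic acid pathway changed at several of its steps, in opposite directions at the receptors and at the phosphatases. Of 8 measured receptors 5 fell and 1 rose, and all 4 measured clade A PP2C phosphatases rose, beside 9.8% of all genes called higher and 7.88% called lower. The gene lists here and below were chosen with earlier results of these data known. Their counts beside all genes are therefore a description and not a test. The receptor PYR1 was at 87.7, 81.3 and 61.8 CPM in DMSO and 40.5, 37.3 and 29.7 CPM with NaCl, without overlap, and fell by 1.10 on the log2 scale (SE 0.11, adjusted p = 2.83e-07). PYL4 went from 217, 249.8 and 191 CPM to 140.4, 119 and 76.3 CPM and fell by 0.97, and PYL5 fell by 1.10, PYL2 by 0.70 and PYL1 by 0.64. PYL7 alone was called in the other direction, from 3.04, 2.58 and 4.41 CPM to 6.53, 5.33 and 8.06 CPM, a log2 fold change of 1.00 (SE 0.22, adjusted p = 0.00257). For PYL8 (log2 fold change -0.04) and PYL9 (0.21) the test was not passed. PYL2 was not called without DMSO library 1, DMSO library 2, NaCl library 2 or NaCl library 3 (log2 fold change -0.56 to -0.64, adjusted p = 0.0749 to 0.112). A fit of the 6 libraries compared alone did not call it either (log2 fold change -0.71, adjusted p = 0.0804). The median of the 8 receptors was -0.67, against -0.01 for all genes.

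ABI1, a PP2C that holds the kinases off, was at 28.3, 32.9 and 39.4 CPM without and 57.7, 67.6 and 90.1 CPM with NaCl, and its log2 fold change was 1.10 (SE 0.13, adjusted p = 2.66e-06). PP2CA rose by 1.25 (SE 0.19, adjusted p = 5.11e-05), with levels of 9.84, 10.9 and 12.9 CPM and 23.5, 19.1 and 37.3 CPM. HAB1 and HAB2 rose by 1.13 and 0.75, and the median of the 4 was 1.12. In each of the 4 the highest of the 6 levels was that of NaCl library 3, and without that library the 4 calls held and the median was 0.89. Other clade A genes are not analysed here. Downstream, 5 of 11 SnRK2 kinase and ABF genes rose, beside 9.8% of all genes, and the other 6 did not pass. ABF3, a bZIP factor that binds ABRE sequences, was at 13.5, 11.0 and 16.2 CPM and 25.5, 24.7 and 42.7 CPM, a log2 fold change of 1.19 (SE 0.18, adjusted p = 5.52e-05), and ABF2 rose by 0.83, ABF4 by 0.53, ABF1 by 0.40 and the kinase gene SNRK2.3 by 0.46. OST1, the guard cell kinase, had a log2 fold change of 0.13 that did not pass. Without NaCl library 3, 3 of the 11 were called. ABF1 was not called without DMSO library 2 or NaCl library 3 (log2 fold change 0.30 to 0.34, adjusted p = 0.0668 to 0.106). ABF4 was not called without NaCl library 3 (log2 fold change 0.43, adjusted p = 0.056), and SNRK2.3 was not called without DMSO library 1 or NaCl library 1 (log2 fold change 0.41 to 0.42, adjusted p = 0.0561 to 0.0567).

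Hormone supply genes gave 3 rises among 7 measured, beside 9.8% of all genes. CYP707A1, which hydroxylates and so removes abscisic acid, was at 4.82, 4.53 and 6.25 CPM and 11.1, 12.6 and 18.5 CPM, a log2 fold change of 1.43 (SE 0.19, adjusted p = 1.04e-05). ABA1, zeaxanthin epoxidase early in synthesis, rose by 0.42, and the exporter ABCG25 by 0.63. ABCG25 was not called without NaCl library 3 (log2 fold change 0.49, adjusted p = 0.0865). NCED3, the step that commonly limits synthesis under stress, is not analysed here.

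Of 23 measured dehydrin, COR and drought genes, a list also chosen with earlier results known, 19 rose, beside 9.8% of all genes called higher. The median log2 fold change of the 23 was 1.05. RD29A, a classic marker of drought and salt, was at 22.3, 24.2 and 22.1 CPM in DMSO and 109, 86.9 and 202 CPM with NaCl. All NaCl libraries lay above all DMSO libraries, and the log2 fold change was 2.54 (SE 0.22, adjusted p = 1.58e-08), or 5.80-fold. ERD10, an acidic dehydrin, went from 128, 141 and 115 CPM to 297, 301 and 461 CPM, a rise of 1.46 (SE 0.13, adjusted p = 2.46e-08). COR6.6 rose by 1.07 (SE 0.11, adjusted p = 2.49e-07) from levels of 139.8, 126 and 120.4 CPM to 263, 231 and 315 CPM, and its near-identical neighbour KIN1, with which it may share reads, by 1.61. Among the others that rose were AFP1 (2.37) and AFP3 (1.69), which act on the abscisic acid factor ABI5, COR47 (1.05), COR15A (1.05), a chloroplast stroma protein of freezing tolerance, and LEA14 (1.09). ERD4 (0.03), ERD6 (0.02), ERD1 (0.40) and LTP3 (0.54) did not pass. All 19 genes that rose had their highest level in NaCl library 3. Without it 17 were called and the median of the 23 was 0.77. RD29B is not analysed here. The late embryogenesis abundant proteins, a family picked by product name after the values were seen, were less uniform. Of 28 measured 8 rose and 2 fell, with a median of 0.06.

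Osmolyte genes gave 5 rises and 3 falls among 17 measured, beside 9.8% and 7.88% of all genes. P5CS1, the rate-limiting enzyme of proline synthesis, was at 9.84, 9.74 and 15.8 CPM without and 25.9, 21.5 and 44.4 CPM with NaCl, and rose by 1.38 (SE 0.25, adjusted p = 0.000428). ERD5, a proline dehydrogenase that breaks proline down, went from 31.7, 30.4 and 30.8 CPM to 20.8, 21.6 and 16.2 CPM and fell by 0.67 (SE 0.14, adjusted p = 0.00186). The proline transporter PROT2 rose by 0.86, the starch-degrading amylase BAM1 by 1.19, raffinose synthase RS5 by 1.08, and MIPS1, which makes the myo-inositol backbone, by 0.66. MIOX2, which consumes myo-inositol, and the polyamine enzyme ADC1 fell by 1.47 and 0.37. P5CS2 (0.19) and GOLS1 (0.13) did not pass.

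In the lists of stress transcription factors, which were chosen with earlier results known, the genes that rose were 8 of 9 ZAT and WRKY genes, 5 of 6 DREB and ERF genes, 9 of 10 NAC genes and 9 of 11 MYB, HD-Zip I and bZIP genes, beside 9.8% of all genes. Families picked by symbol after the values were seen were less uniform: of 27 WRKY genes 9 rose and 1 fell, of 24 NAC genes 12 rose, and of 21 ERF and RAP2 genes 9 rose and 3 fell. WRKY40 and WRKY33, which bind the W-box and are known from defence, rose by 2.56 and 2.32. WRKY40 was at 3.45, 3.31 and 3.69 CPM and then 16.1, 26.4 and 19.6 CPM, and WRKY33 at 5.78, 5.94 and 7.74 CPM and then 25.4, 28.2 and 43.3 CPM, so both groups were apart in both genes. WRKY25 (1.36), WRKY6 (1.33), WRKY18 (0.86) and ZAT6 (1.65) also rose, and AZF3 (-0.28) did not pass. Without NaCl library 1 the rise of WRKY18 was 0.57. Among DREB and ERF genes ERF11 rose by 1.67, RAP2.6 by 1.39, RAP2.6L by 0.77 and RAP2.4 by 0.73. The DREB genes CBF1 to CBF3 and DREB2A, which bind the DRE, are not analysed here.

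NAC102 was at 32.9, 31.5 and 42.9 CPM in DMSO and 117, 110.1 and 109 CPM with NaCl, a log2 fold change of 1.65 (SE 0.11, adjusted p = 4.32e-10). ATAF1 and ATAF2, stress NAC factors of the same subgroup, rose by 1.72 and 1.75, RD26, a NAC factor of dehydration, by 1.72, and NAC032 by 1.35. The median of the 10 NAC genes was 1.29. HB7, a homeobox factor of the abscisic acid response, was at 10.7, 12.2 and 11.8 CPM and 40.2, 35.6 and 81.1 CPM and rose by 2.18 (SE 0.22, adjusted p = 2.8e-07). BZIP1, a factor of the low-sugar response, rose by 1.78 and HB6, a homeobox factor, by 0.83. MYB77, a factor of auxin response, was at 9.33, 5.99 and 6.51 CPM and 46.6, 25.5 and 15.9 CPM and rose by 2.02 (SE 0.28, adjusted p = 1.62e-05), with NaCl library 1 highest and library 3 lowest of the 3.

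Calcium sensors and kinases gave 9 rises and 1 fall among 20 measured, beside 9.8% and 7.88% of all genes. The EF-hand calcium-binding proteins, a family picked by product name after the values were seen, were less uniform. Of 26 measured 4 rose and 3 fell, with a median of 0.04. TCH3, a touch-induced calmodulin-like protein, was at 38.1, 32.4 and 23.3 CPM without NaCl and 71.3, 101 and 116 CPM with it, a rise of 1.61 (SE 0.19, adjusted p = 1.28e-06). CML38, a calmodulin-like protein, went from 7.55, 4.04 and 4.92 CPM to 12.9, 23.3 and 22.6 CPM and rose by 1.82 (SE 0.22, adjusted p = 2.32e-06). CBL1, a calcineurin B-like sensor that recruits CIPK kinases, rose by 0.67 and CML9 by 0.66. CML8 fell by 1.12. The sensor CBL10 of the salt-overly-sensitive route had a log2 fold change of -0.17 and did not pass.

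Of 16 measured sodium, potassium and proton transport genes 3 rose and 3 fell, beside 9.8% and 7.88% of all genes, with a median of 0.03. SOS1, the plasma membrane sodium exporter, was at 5.27, 7.31 and 7.89 CPM and 8.55, 6.45 and 8.65 CPM, overlapping groups with a log2 fold change of 0.21 (SE 0.18, adjusted p = 0.468). NHX1, a vacuolar exchanger of sodium or potassium for protons, was at 24.2, 23.3 and 22.7 CPM and 27.1, 26.5 and 28.1 CPM. These groups did not overlap, but the log2 fold change of 0.22 (SE 0.09, adjusted p = 0.115) did not pass, and 30.9% of all genes had groups that do not overlap. NHX2, the close relative of NHX1, went from 4.16, 2.97 and 3.13 CPM to 7.24, 8.93 and 9.42 CPM and rose by 1.32 (SE 0.20, adjusted p = 4.99e-05). The anion channel gene SLAH3 rose by 0.65 and the endosomal exchanger gene NHX6 by 0.63. The falls were of proton and calcium movers: the vacuolar calcium exchanger CAX1 by 0.59, the plasma membrane proton pump AHA2 by 0.41 and the vacuolar pyrophosphatase AVP1 by 0.32. Most of these calls rested on single libraries, with 1 rise called without DMSO library 2, and 1 fall without DMSO library 3 or without NaCl library 3. SLAH3 was not called without DMSO library 2 or NaCl library 1 (log2 fold change 0.47 to 0.50, adjusted p = 0.051 to 0.0589), and NHX6 was not called without DMSO library 2 (log2 fold change 0.52, adjusted p = 0.0507). AHA2 was not called without DMSO library 3, NaCl library 2 or NaCl library 3 (log2 fold change -0.19 to -0.41, adjusted p = 0.0588 to 0.229). AVP1 was not called without DMSO library 3, NaCl library 1 or NaCl library 3 (log2 fold change -0.22 to -0.33, adjusted p = 0.0532 to 0.121). HKT1, which withdraws sodium from the xylem, is not analysed here.

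Of 21 aquaporins 5 rose and 4 fell, beside 9.8% and 7.88% of all genes. PIP2;3 was at 33.8, 35.3 and 34.3 CPM in DMSO and 56.4, 44.9 and 73.4 CPM with NaCl, a rise of 0.76 (SE 0.12, adjusted p = 7.4e-05), and its near-identical copy PIP2;2 had a log2 fold change of 0.09 that did not pass, so how reads were divided between the 2 genes bears on both values. PIP2;1 and PIP1;2, water channels of the plasma membrane, rose by 0.44 and 0.40, and the tonoplast gene TIP2;3 by 0.69. PIP2;4 went from 35.3, 34.1 and 29.8 CPM to 22.1, 17.7 and 16.2 CPM and fell by 0.82 (SE 0.13, adjusted p = 0.00012), and TIP2;1 fell by 0.48.

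Wall genes moved both ways. All 8 measured genes of cellulose synthesis fell, beside 7.88% of all genes, with a median of -0.54. CESA6, a catalytic subunit of primary wall cellulose synthase, was at 123, 104 and 124 CPM and 80.5, 71.8 and 70.8 CPM and fell by 0.66 (SE 0.09, adjusted p = 9.63e-06). CESA3 fell by 0.69, CESA2 by 0.67, CSI1, which ties the complexes to microtubules, by 0.51, and COB, a protein of oriented growth, by 0.58. Without DMSO library 3, 5 of the 8 were called. Wall-loosening genes split, with 8 of 19 higher and 4 lower, beside 9.8% and 7.88% of all genes. EXPA10, an expansin, was at 46.0, 45.6 and 53.4 CPM and 222, 209.5 and 363 CPM and rose by 2.46 (SE 0.16, adjusted p = 2.83e-10), and EXPA1 went from 88.4, 77.1 and 82.1 CPM to 247, 306 and 299.6 CPM and rose by 1.78 (SE 0.10, adjusted p = 5.44e-11). XTH22, a touch-induced member, was at 17.2, 14.8 and 15.6 CPM and 116, 61.8 and 48.6 CPM, with NaCl library 1 well above libraries 2 and 3, and rose by 2.26 (SE 0.28, adjusted p = 3.2e-06). XTH23 rose by 1.84, while XTH17 (fell by 1.73), XTH9 (fell by 0.83), XTH5 (fell by 0.57) and XTH4 (fell by 0.53) went down.

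**Figure D3:**
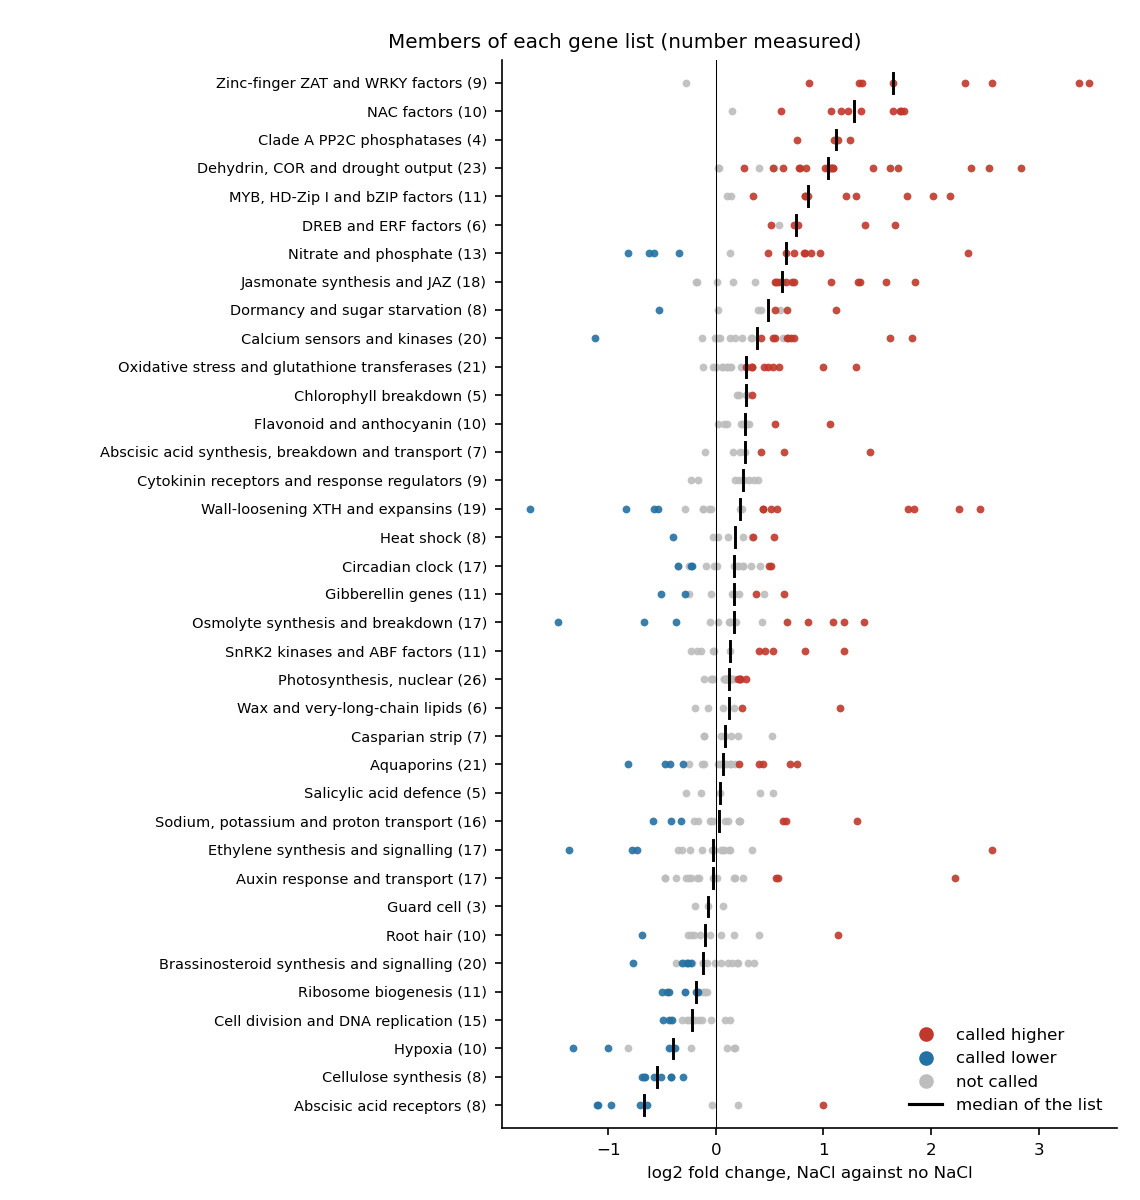
Log2 fold change (NaCl against no NaCl) of each measured member of the gene lists, ordered by list median; coloured points passed the test and the bar is the median. Phosphatases, dehydrins and transcription factors of stress lie highest, and receptors of abscisic acid (median -0.67) and cellulose synthesis (median -0.54) lie lowest.

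Jasmonate genes rose in 13 of 18 cases, beside 9.8% of all genes, with a median of 0.61. The repressor JAZ1, which jasmonate signalling destroys and then induces, was at 43.0, 38.3 and 40.5 CPM and 114, 95.7 and 93.3 CPM, a rise of 1.32 (SE 0.11, adjusted p = 1.09e-08). MYC2, the factor JAZ proteins hold back, went from 13.2, 13.6 and 12.3 CPM to 37.2, 48.2 and 31.7 CPM and rose by 1.58 (SE 0.15, adjusted p = 5.29e-08). The synthesis enzyme AOS rose by 1.07, and CYP94C1, which oxidises the active hormone, by 1.85. JAZ5 (1.34) and JAZ12 (0.56) also rose, while the storage proteins VSP1 (-0.17) and VSP2 (-0.18), late jasmonate outputs that may share reads, did not pass. Without NaCl library 1 the rise of CYP94C1 was 1.14. In ethylene genes 1 of 17 rose and 3 fell, beside 9.8% and 7.88% of all genes. ACS6, an inducible enzyme that makes the ethylene precursor, was at 4.16, 4.82 and 6.66 CPM and 31.9, 32.6 and 28.1 CPM and rose by 2.57 (SE 0.17, adjusted p = 3.87e-10). ACO1 of the following step fell, as given above, and the receptor gene ETR2 fell by 0.78 and ARL, a growth gene related to ARGOS, by 0.73. ETR2 was not called without NaCl library 3 (log2 fold change -0.64, adjusted p = 0.0545).

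Among genes of growth hormones, 5 of 20 brassinosteroid genes fell, beside 7.88% of all genes, and the other 15 did not pass. BEE1, a growth-promoting factor induced by brassinosteroid, was at 21.0, 28.8 and 18.1 CPM and 15.7, 14.4 and 9.85 CPM and fell by 0.77 (SE 0.17, adjusted p = 0.00298). The sterol enzymes DWF7, SMT1, DWF5 and DWF1 fell by 0.32, 0.27, 0.26 and 0.23, and the receptor gene BRI1 (-0.37) did not pass. Leaving out any 1 of the 6 libraries gave 2 to 4 falls in the list, and the enzyme genes lost their calls, DWF7, SMT1 and DWF5 without NaCl library 2 (adjusted p = 0.108, 0.079 and 0.109) and DWF1 without NaCl library 3 (0.117). In auxin genes 3 of 17 rose, or 2 where leaving out a library ended the call of IAA19, beside 9.8% of all genes. GH3.3, which conjugates auxin to amino acids, was at 3.70, 4.29 and 5.69 CPM and 20.9, 16.2 and 26.8 CPM and rose by 2.23 (SE 0.18, adjusted p = 9.26e-09), and IAA2 and IAA19 rose by 0.56 and 0.57. IAA19 was not called without DMSO library 1, DMSO library 3, NaCl library 2 or NaCl library 3 (log2 fold change 0.45 to 0.56, adjusted p = 0.0908 to 0.179). Of the 17 auxin genes 0 were called lower, against 1 without DMSO library 1, DMSO library 3 or NaCl library 3 and 2 by DESeq2. Of 11 gibberellin genes 2 rose and 2 fell, beside 9.8% and 7.88% of all genes. In this list 0 falls were called without NaCl library 2 and 1 without NaCl library 3 or any 1 of the DMSO libraries. GA3OX1, an enzyme that makes active hormone, rose by 0.63 and the DELLA repressor gene GAI fell by 0.51. GAI was not called without DMSO library 3, NaCl library 2 or NaCl library 3 (log2 fold change -0.40 to -0.47, adjusted p = 0.0714 to 0.0938). Of 9 cytokinin genes edgeR called 0 at the adjusted threshold, against 4 at an unadjusted p under 0.05, which 30.1% of all genes had, and 1 by DESeq2 or without DMSO library 3 or NaCl library 1. For salicylic acid, 0 of 5 genes were called by edgeR or DESeq2, 2 had an unadjusted p under 0.05, and 1 was called without DMSO library 1.

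In the oxidative stress list 9 of 21 genes rose, beside 9.8% of all genes. GSTF7, a glutathione transferase that may share reads with GSTF6, was at 41.2, 37.0 and 34.7 CPM and 102, 97.0 and 78.6 CPM and rose by 1.30 (SE 0.12, adjusted p = 8.88e-08), GSTF6 by 0.45 and GSTU5 by 0.99. VTC2, which commits sugar to ascorbate, rose by 0.53, while APX1 (-0.03) and CSD1 (-0.00), ascorbate peroxidase and superoxide dismutase, did not pass. Of 10 hypoxia genes 4 fell, beside 7.88% of all genes. HRE1, an ethylene response factor of low oxygen, was at 6.74, 6.43 and 5.18 CPM and 2.35, 3.37 and 1.67 CPM and fell by 1.33 (SE 0.23, adjusted p = 0.000245), and PCO1, a cysteine oxidase of oxygen sensing, by 1.00. Without DMSO library 1, NaCl library 2 or NaCl library 3, 2 of the 10 were called. The 8 heat shock genes gave 2 rises and 1 fall, beside 9.8% and 7.88% of all genes. The larger rise was that of MBF1C by 0.54, and HSC70-1 fell by 0.40. Without DMSO library 1, DMSO library 3, NaCl library 2 or NaCl library 3 only 1 heat shock gene was called higher.

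Nutrient genes moved in 12 of 13 cases, 8 up and 4 down, beside 9.8% and 7.88% of all genes, with 2 falls called without DMSO library 3 or NaCl library 2. SPX1, a sensor of phosphate status, was at 11.4, 12.6 and 14.4 CPM and 49.9, 72.5 and 72.2 CPM and rose by 2.34 (SE 0.17, adjusted p = 1.51e-09). SPX2, of the same family, rose by 0.89, SQD2, which makes sulfolipid, by 0.81, and NIA2, nitrate reductase, by 0.72. The nitrate transceptor NRT1.1 went from 176, 172 and 179 CPM to 124, 117 and 102 CPM and fell by 0.62 (SE 0.10, adjusted p = 5.25e-05). Of 8 dormancy and sugar-starvation genes 3 rose and 1 fell, beside 9.8% and 7.88% of all genes. Among them TPS8 rose by 1.12 and DIN10 fell by 0.53. DIN10 was not called without NaCl library 3 (log2 fold change -0.38, adjusted p = 0.066).

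Of 11 ribosome biogenesis genes 6 fell, beside 7.88% of all genes called lower. With any 1 library left out 4 to 5 falls were called, and 4 in a fit of the 6 libraries compared alone. NOP56 was at 232, 246 and 281 CPM and 185, 175 and 175 CPM and fell by 0.51 (SE 0.08, adjusted p = 0.000151), with groups that do not overlap. FIB2, fibrillarin of the nucleolus, fell by 0.45, APUM24, an RNA-binding protein of rRNA processing, by 0.44 and NUC1, nucleolin, by 0.29. Of 15 division and replication genes 3 fell, beside the same 7.88%: MCM7 by 0.49 and MCM5 by 0.43, subunits of the replicative helicase, and PCNA1, the sliding clamp, by 0.41. Without DMSO library 2, 6 of the 15 were called lower. Of 17 clock genes 2 rose and 3 fell, beside 9.8% and 7.88% of all genes. PRR5, a repressor of morning genes, and ELF4, of the evening complex, rose by 0.52 and 0.50. PIF5, a growth-promoting light factor, fell by 0.36, and the RNA-binding protein genes GRP7 and GRP8 by 0.23 and 0.23. Fitting only the 6 libraries compared left 0 of the 3 falls (adjusted p = 0.0911, 0.122 and 0.117). PIF5 was not called without DMSO library 3 or NaCl library 3 (log2 fold change -0.24 to -0.26, adjusted p = 0.133 to 0.169). GRP7 was not called without DMSO library 2, NaCl library 1 or NaCl library 2 (log2 fold change -0.16 to -0.24, adjusted p = 0.0526 to 0.12), and GRP8 was not called without DMSO library 2, NaCl library 2 or NaCl library 3 (log2 fold change -0.16 to -0.24, adjusted p = 0.0616 to 0.142).

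Tissue marker lists moved little. Of 26 photosynthesis genes 4 rose by 0.21 to 0.28, beside 9.8% of all genes, and leaving out 1 library gave between 0 and 11 rises: 0 without DMSO library 1, DMSO library 3 or NaCl library 3, 1 without NaCl library 2, 2 without NaCl library 1 and 11 without DMSO library 2. Of 10 root hair genes 1 rose and 1 fell, beside 9.8% and 7.88% of all genes. EXPA7, an expansin, rose by 1.13 and PRP1 fell by 0.68. Of 7 Casparian strip genes edgeR and DESeq2 called 0, 1 had an unadjusted p under 0.05, and 1 was called without NaCl library 2. All 3 guard cell genes missed the threshold, also at an unadjusted p under 0.05 and by DESeq2. NYC1 of chlorophyll breakdown rose by 0.34, PAP1, a MYB factor of anthocyanin synthesis, by 1.06, and KCS2, an elongase of very-long-chain lipids, by 1.15. In their lists 1 of 5 chlorophyll breakdown, 2 of 10 flavonoid and 2 of 6 wax genes rose, beside 9.8% of all genes. The other flavonoid rise, UF3GT, was lost under 3 of 15 alternatives, and the other wax rise, KCS6, under 6.

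Upstream sequence was read for the 14104 nuclear genes with a window, 1383 of which rose and 1114 fell. The ABRE (ACGTGTC or ACGTGGC) was found in 7.56% of all windows, in 12.9% of those of genes that rose, in 16.0% of the 263 that rose by at least 1 on the log2 scale, and in 6.1% of those that fell. The DRE (ACCGAC or GCCGAC) gave 8.34, 11.9, 16.3 and 8.71% in the same order, and the W-box (TTGACC or TTGACT) 27.4, 32.3, 39.9 and 25.0%. The G-box (CACGTG), which overlaps an ABRE preceded by C, gave 7.59, 11.6, 15.6 and 6.91%. The CGCGTT motif, the core of a rapid stress response element, gave 2.61, 3.9, 7.6 and 2.69%, and the evening element (AAATATCT) 5.15, 7.59, 9.13 and 5.83%. The motifs of growth-related genes were less frequent among genes that rose: site II (TGGGCC) gave 18.5, 10.7, 6.46 and 19.7%, and the telo-box (AAACCCTA) 3.6, 1.66, 2.66 and 5.48%. Genes not called had site II in 19.3% of windows, close to the 19.7% of those that fell. The GCC-box (GCCGCC) gave 1.94, 1.66, 3.42 and 2.33%. Both strands were searched, shares were not tested, and base composition and the strength of expression were not matched between the sets.

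**Figure D4:**
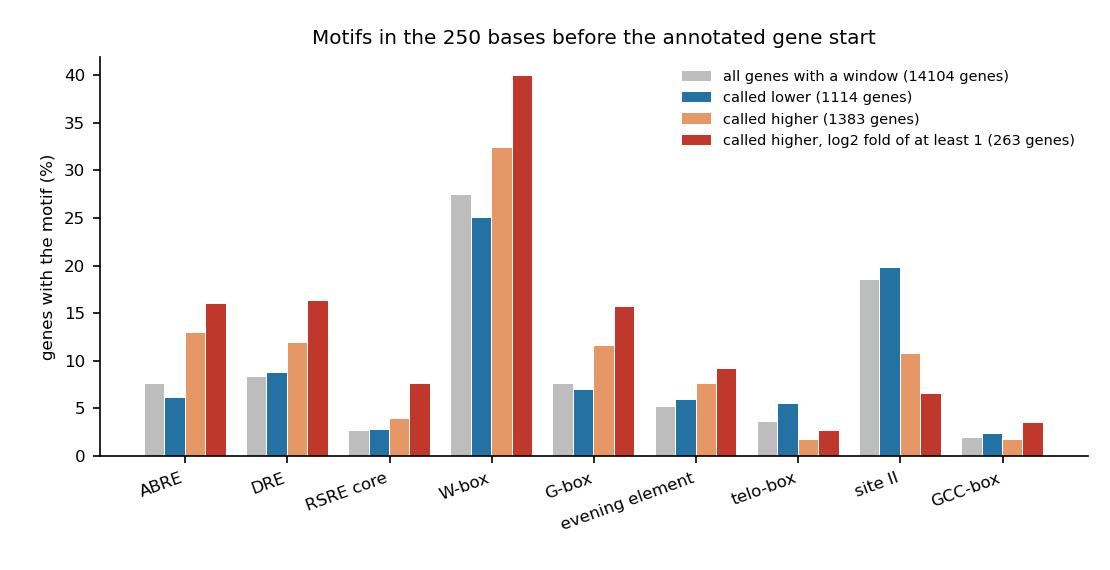
Share of genes (%) whose 250 bases before the annotated start hold each motif on either strand, for all 14104 genes with a window, the 1383 called higher, the 263 called higher by at least 1 on the log2 scale and the 1114 called lower. Bars of the genes that rose are above those of all genes for ABRE, DRE, W-box and G-box and below them for site II.

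NaCl was also given after DPAM-1 and after coronatine, in libraries that share none with the DMSO comparison. Of the 1395 genes that rose in DMSO, 752 (53.9%) also rose after DPAM-1, which is 76.4% of the 984 genes that rose there (6.92% of all genes). After coronatine 833 (59.7%) rose, 39.8% of the 2095 that rose there (14.7% of all genes), and 546 rose after both. Of the 1121 that fell, 506 (45.1%) fell after DPAM-1, 66.8% of the 758 there (5.33% of all genes), and 573 (51.1%) after coronatine, 33.4% of 1716 (12.1% of all genes). Calls in the opposite direction were made for 8 of the raised genes after DPAM-1 and for 34 raised and 17 lowered genes after coronatine. The median log2 fold change of the genes raised in DMSO was 0.59 there, 0.42 after DPAM-1 and 0.44 after coronatine, and that of the lowered genes -0.45, -0.31 and -0.32. Since the DMSO value chose these genes, a smaller size in the other libraries is favoured by that choice.

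The difference between the NaCl effects was tested as an interaction. It was called for 71 genes with DPAM-1 (0.499% of all), 1 with a higher (0.00703%) and 70 with a lower NaCl effect than in DMSO, and for 546 with coronatine (3.84%), 237 higher (1.67%) and 309 lower (2.17%). Without library 1 of coronatine and NaCl 359 genes were called with coronatine. For the abscisic acid outputs RD29A and ABI1 and the expansin EXPA10 the interaction was not called. For RD29A the NaCl effect was 2.23 after DPAM-1 and 2.45 after coronatine on the log2 scale, and the differences from DMSO were -0.30 (95% interval -0.91 to 0.30) and -0.08 (95% interval -0.71 to 0.54). For ABI1 the differences were 0.14 (95% interval -0.25 to 0.53) and 0.37 (95% interval -0.01 to 0.75), and for EXPA10 0.01 (95% interval -0.44 to 0.46) and 0.04 (95% interval -0.40 to 0.48). These intervals allow modest differences either way and do not show that the effects are alike.

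By list, the NaCl log2 fold change was called lower after DPAM-1 than in DMSO in 5 of 9 ZAT and WRKY genes, 4 of 19 wall-loosening genes, 2 of 20 calcium genes, 2 of 18 jasmonate genes and 2 of 11 MYB, HD-Zip I and bZIP genes, beside 0.492% of all genes. XTH22 had the largest called difference, -3.35 (SE 0.39, adjusted p = 3.37e-05). Its mean level was 43.1 ± 1.28 CPM with DPAM-1 alone and 20.3 ± 10.4 CPM with DPAM-1 and NaCl (mean ± SD, n = 3). In the DMSO groups it was 15.9 ± 1.24 and 75.6 ± 36.0 CPM. The mean without NaCl thus lay higher with DPAM-1, a difference that was not tested. AT1G07135 differed by -2.98 (SE 0.23, adjusted p = 7.55e-08), with mean levels of 21.7 ± 2.27 and 21.9 ± 4.29 CPM around DPAM-1. ZAT12 differed by -2.71 (SE 0.28, adjusted p = 8.94e-06) and stood at 7.81 ± 0.940 and 13.2 ± 3.79 CPM. AT4G27280, an EF-hand protein that rose by 1.83 in DMSO, differed by -2.67 (SE 0.29, adjusted p = 1e-05). The only gene with a higher effect was EXPA11, an expansin, whose log2 fold change was 0.23 in DMSO, where it did not pass, and 0.99 after DPAM-1, a difference of 0.77 (SE 0.15, adjusted p = 0.011). Without library 1 of DPAM-1 and NaCl that difference was 0.72 and did not pass (adjusted p = 0.0517). Among list genes, TCH3 (-2.18), CML38 (-2.01), MYB77 (-2.48), XTH23 (-2.66) and ZAT10 (-2.50) were also called with lower effects.

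With coronatine, the called differences went both ways. The NaCl log2 fold change was called lower than in DMSO in 5 of 9 ZAT and WRKY genes, beside 2.17% of all genes. Among other lists it was called lower in 3 of 18 jasmonate genes, 3 of 13 nutrient genes and 3 of 11 MYB, HD-Zip I and bZIP genes. It was called higher in 3 of 21 aquaporins, beside 1.67% of all genes. An aquaporin among these 3 lost its call with scaling to library totals (adjusted p = 0.0591) and in a fit of only the groups compared (0.115). Its call was also lost without single libraries, such as NaCl library 2 of DMSO (0.102). Some mean levels without NaCl lay above those in DMSO, a difference that was not tested. ZAT10 had means of 33.5 and 97.6 CPM around coronatine, against 5.81 and 60.6 CPM in DMSO. GH3.3 fell with NaCl after coronatine by 1.20 on the log2 scale, from 13.0 ± 1.14 to 5.61 ± 0.256 CPM, and differed from DMSO by -3.43 (SE 0.26, adjusted p = 6.22e-08). ERF2, an ethylene response factor that rose by 2.19 in DMSO, differed by -3.05 (SE 0.40, adjusted p = 6.57e-05), and SPX1 by -2.48 (SE 0.25, adjusted p = 3.9e-06). AT3G15450, annotated as aluminium-induced, was at 14.6, 7.35 and 6.66 CPM and 44.5, 74.5 and 28.1 CPM in the DMSO groups and differed by -2.44 (SE 0.55, adjusted p = 0.0117). In the other direction HB12, a homeobox factor like HB7, rose by 1.21 in DMSO and 3.11 after coronatine, a difference of 1.90 (SE 0.39, adjusted p = 0.0057). HB12 was not called without NaCl library 3 (log2 fold change 0.61, adjusted p = 0.056). AT5G04120, annotated as a phosphoglycerate mutase, was at 5.32, 3.90 and 3.84 CPM and 4.37, 5.38 and 4.03 CPM in DMSO, overlapping groups, and at 68.7 ± 10.4 and 236 ± 11.1 CPM with coronatine, a difference of 1.71 (SE 0.26, adjusted p = 0.000273). AT3G43270, annotated as a pectin methylesterase inhibitor, and AT1G61930, annotated as a senescence regulator, differed by 1.71 and 1.64.

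**Figure D5:**
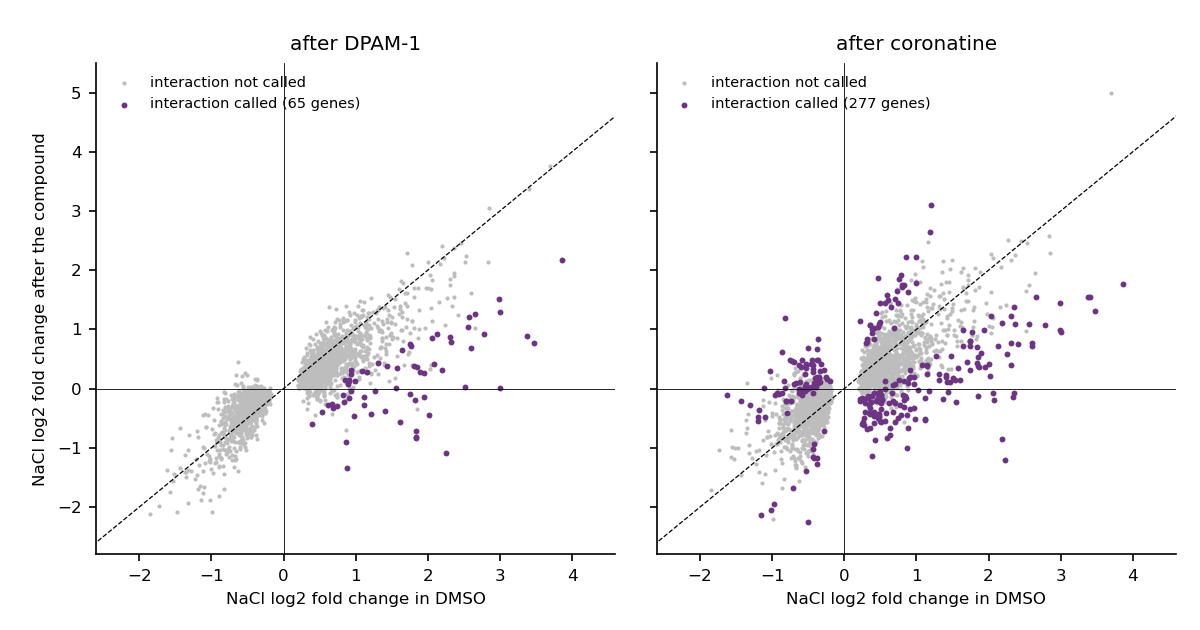
NaCl log2 fold change after DPAM-1 (left) and after coronatine (right) against that in DMSO, for the 2516 genes called in DMSO; the dashed line marks equal effects and coloured points are genes whose interaction was called. Genes such as ZAT12 and AT1G07135 lie well below the line after DPAM-1.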

How the data were processed

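The authors deposited a table of raw counts, whole-number reads per gene, from Lasy-Seq version 1.1 libraries per the labels' protocols. Per the submitters' processing notes bcl2fastq, Trimmomatic, HISAT2, featureCounts and DESeq2 were used with TAIR10, and versions are not given in the sources used here. A second deposited table was not used. Each of the 14229 genes reached 30 reads in every one of the 18 libraries, so genes silent in any library are outside every statement. Totals were 17266389 to 34202322 reads in the 6 libraries compared, and without molecular identifiers reads are not independent molecules. Strand use in counting is not given in the sources used here, so overlapping antisense genes are uncertain.

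The tools were edgeR 4.0.16, limma 3.58.1 and R 4.3.3: TMM scaling, 1 quasi-likelihood model of 6 groups over 18 libraries (the expression filter removed 0 genes, biological coefficient of variation 10.4%), and two-sided tests of NaCl in each pretreatment and of the interactions, adjusted by Benjamini-Hochberg at 0.05. CPM are counts scaled to library size with TMM factors, and SE is the log2 fold change divided by the root of F. An exact permutation test of 3 against 3 could not go below 0.1. Scripts were tested on simulated data. Gene names came from TAIR10.1, which held 14105 codes, 6686 with a symbol. Genes were named by a rule: the 12 highest and 12 lowest calls (mean log2 CPM of at least 2, no overlap), up to 4 members of smallest p per list and 2 in the other direction, 6 marker genes, and up to 4 genes each way per interaction. Other list members were named after their values were seen. The members and lists were chosen with earlier results of these data known. Alternatives were DESeq2 1.42.0, other scaling, other filters, no organelle genes, a block for the replicate number, a fit of the 6 libraries compared alone, a log2 fold change of at least 1, and each library left out. Equal replicate numbers did not pair the libraries: same-numbered deviations correlated at 0.04, -0.15 and -0.11.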

Additional observations from a re-analysis of the deposited data

Results flagged for a closer look

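The NaCl effect after a compound differed from that in DMSO for 64 gene and compound pairs among the genes named in the report, by edgeR's interaction test with an adjusted p under 0.05 over all genes. Each value here is the NaCl log2 fold change after the compound minus that in DMSO. A negative value can be a smaller rise, a larger fall or a rise turned into a fall. Both tests use the same 6 DMSO libraries, and many of these genes were named for the size of their DMSO response, a choice that favours a smaller effect after a compound. Groups of 3 libraries were too small for a check on single outlying values.

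Of 9 ZAT and WRKY genes 5 had a lower NaCl effect after each compound, and of 10 NAC genes 1 after DPAM-1 and 2 after coronatine. Of all genes, 0.492% were called lower after DPAM-1 and 2.17% after coronatine in this test. After DPAM-1 the differences were -2.71 for ZAT12, -2.50 for ZAT10, -1.53 for WRKY40, -1.52 for WRKY33, -1.76 for WRKY18, -1.0 for ATAF2 and -2.48 for MYB77. After coronatine they were -2.16 for ZAT12, -1.84 for ZAT10, -1.47 for WRKY40, -1.54 for WRKY33, -1.87 for WRKY18, -1.03 for ATAF2, -1.81 for MYB77 and -0.67 for NAC102. A lower effect on the log2 scale need not be a lower level with NaCl. The mean of ZAT10 was 33.5 CPM with coronatine alone and 97.6 CPM with coronatine and NaCl, against 5.81 and 60.6 CPM in DMSO. The MYB77 difference after coronatine was not called without coronatine library 1 (-1.55, adjusted p = 0.0566). ERF2 differed by -1.87 after DPAM-1 and -3.05 after coronatine. The DPAM-1 value was not called when any of 5 libraries was left out (DMSO 2 or 3, DPAM-1 library 3, DPAM-1 and NaCl library 1 or 3), with adjusted p = 0.0531 to 0.0711.

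Of the genes with the largest rises in DMSO, AT1G76600 differed by -1.69 after DPAM-1 and -2.10 after coronatine, BCS1 by -1.71 and -2.05, AT1G07135 by -2.98 and -1.55, AR781 by -1.47 and -1.99, and AT3G10930 by -1.86 and -1.71. AT1G19020 differed by -1.40 and -1.11, calls that ended without DMSO library 3 or DPAM-1 library 1 (adjusted p = 0.0578 and 0.0559) and without coronatine library 1 or coronatine and NaCl library 2 (0.0638 and 0.0616). AT2G41730 differed after coronatine, by -1.86. The touch-induced and calcium genes gave -2.18 for TCH3 and -2.01 for CML38 after DPAM-1. There TCH3 fell with NaCl (log2 fold change -0.57, edgeR adjusted p = 0.0393), and CML38 (-0.19) was not called. AT4G27280 gave -2.67 after DPAM-1 and -1.13 after coronatine, the latter not called without any of 5 libraries, with adjusted p = 0.0566 to 0.0926 and the smallest difference, -0.77, without NaCl library 1 of DMSO.

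Hormone genes were also among them. After DPAM-1 the differences were -0.88 for JAZ1, -1.23 for MYC2 and -1.36 for ACS6. After coronatine, itself a jasmonate mimic, they were -1.07 for JAZ1, -1.22 for MYC2, -1.98 for CYP94C1, -3.43 for GH3.3 and -1.41 for GA3OX1, against 1.19 for ARL. CYP94C1 was not called with DESeq2 (adjusted p = 0.072) or without DMSO library 2, NaCl library 1 of DMSO or coronatine and NaCl library 2 (-1.27 to -1.91, adjusted p = 0.0505 to 0.0853). The abscisic acid receptor genes PYL4 and PYR1 moved apart, with -0.98 and 0.62. The value of PYR1 was not called when any of 7 libraries was left out, with adjusted p = 0.0523 to 0.0986.

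Among wall genes XTH22 differed by -3.35 after DPAM-1 and -1.68 after coronatine, XTH23 by -2.66 after DPAM-1, and EXPA11 by 0.77 and 0.75. The XTH22 value after coronatine was not called without coronatine library 1 (-1.51, adjusted p = 0.0527), and that of EXPA11 after DPAM-1 not without DPAM-1 and NaCl library 1 (0.72, adjusted p = 0.0517). Nutrient, sugar and clock genes differed after coronatine, SPX1 by -2.48, SQD2 by -0.92, TPS8 by -1.65, DIN10 by -0.87, PRR5 by -0.86 and ELF4 by -0.63. ELF4 was not called when any of 9 libraries was left out, with adjusted p = 0.0669 to 0.117. The exchanger gene NHX2 differed by -1.18, not called when any of 4 libraries was left out, with adjusted p = 0.052 to 0.0729. The remaining differences after coronatine were -2.44 for AT3G15450, 1.52 for AT1G14960, 1.22 for AT4G12520, 1.90 for HB12, 1.71 for AT5G04120, 1.71 for AT3G43270 and 1.64 for AT1G61930.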

How the results depend on the processing

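The 2516 calls became 2710 with DESeq2, 2484 to 2560 with other scaling or other filters, and 2527 without organelle genes. A log2 fold change of at least 1 left 310, 264 higher and 46 lower. Fitting only the 6 libraries compared gave 1727, 1012 higher and 715 lower. Among the genes that lost their call in this fit were PYL2, ABF1, AHA2, IAA19, DWF7, DWF1 and DWF5 (edgeR adjusted p = 0.0513 to 0.0829). Leaving out 1 library gave 1677 to 2241 calls, 990 to 1241 higher and 687 to 1000 lower, each lowest without NaCl library 3. For the coronatine interaction, 546 calls, leaving out 1 library gave 359 to 750, the lowest without coronatine and NaCl library 1, and the other alternatives 419 to 748. The DPAM-1 interaction, 71 calls, gave 54 to 104. The causes were not tested. Of 176 genes that were called between the DMSO groups and picked by the naming rule or named in the text, 145 kept their call under each alternative run with the same threshold, 31 lost it under at least 1 and 0 reversed. These alternatives were 15 for each gene but HRE1 and TPS8, which had 14 since the filter on a mean count of 100 removed them. A log2 fold change of at least 1 left 84 of the 176.

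Equal replicate numbers did not pair the libraries. With the replicate number as a block 2446 genes were called, 2390 of them among the 2516, and the interactions gave 74 and 562 calls. Genes under 30 reads in any library are outside these values.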

Other observations

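Gene families picked by symbol or product name after the values were seen filled in the account. Of 12 fasciclin-like arabinogalactan genes 9 fell, beside 7.88% of all genes, with a median log2 fold change of -0.55. FLA13 was at 235, 266 and 188 CPM in DMSO and 136, 87.4 and 92.6 CPM with NaCl, and fell by 1.12 (SE 0.14, edgeR adjusted p = 4.03e-06). Of 15 tubulin genes 9 fell, beside the same 7.88%, among them TUA3 by 0.74 and TUB4 by 0.42. Cytosolic ribosomal protein genes fell in 40 of 257 cases and rose in 3, with a median of -0.13, beside 7.88% and 9.8% of all genes called lower and higher.

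UDP-glucosyltransferases, which attach sugars to hormones and toxins, rose in 21 of 69 cases and fell in 5, beside 9.8% and 7.88% of all genes. UGT73B3 was at 8.97, 9.74 and 13.6 CPM and then at 23.4, 24.0 and 25.5 CPM, a rise of 1.17 (SE 0.15, edgeR adjusted p = 4.6e-06). Of 36 peroxidases 10 fell and 5 rose, beside 7.88% and 9.8% of all genes. AT5G39580, annotated as a peroxidase, was at 5.02, 6.72 and 5.13 CPM and then at 28.8, 34.8 and 39.4 CPM, a rise of 2.61. ERF-1 went from 12, 12.8 and 9.84 CPM to 73.4, 39.0 and 33.3 CPM and rose by 2.08, with NaCl library 1 highest. Of 21 ERF and RAP2 genes 9 rose and 3 fell, beside 9.8% and 7.88% of all genes. The ubiquitin ligase gene PUB23, known in drought responses, rose by 1.48. Other families moved less or both ways, beside the same 9.8% and 7.88%. Of 16 SAUR-like genes 3 rose and 5 fell, of 26 pectin lyase-like genes 6 rose and 5 fell, and of 19 HSP20-kind genes 4 rose and 1 fell. The families of this section were chosen after the values were seen, some for their changes, so their counts support nothing beyond the description.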
